A study of Mus musculus with 8 samples.

Results

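The genes described here are 10 imprinted genes of mice, namely Dlk1, Meg3, Rian, Plagl1, Asb4, Peg3, Usp29, Mest, Nnat and Peg10. They were followed on every probe set that the array's annotation assigns to them, which gave 32 of the 45037 probe sets, each kept separate. Dlk1, Plagl1 and Asb4 were picked because they stood higher in null arrays of this series, so their differences between null and wild type are a description and are given without a test. The other 7 genes were taken as imprinted genes. Striatum was punched at postnatal day 0, with a punch of 500 µm diameter, from slices of 300 µm, and each of 8 Affymetrix arrays held RNA of 1 mouse of strain BALB/c. The groups were 3 wild type mice, 1 mouse labelled Ctip2 heterozygote and 4 labelled Ctip2 null mutant. Ctip2 is now named Bcl11b, and its product is a zinc finger protein that regulates transcription in medium spiny neurons. Which part of the gene the mutant allele lacks, and whether littermates were used, the labels do not say. A punch holds all cells of the tissue, so fewer cells of a type and less RNA per cell cannot be told apart. All levels are on the log2 scale, and levels of different probe sets are not compared.

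Imprinted genes are transcribed mainly from the copy inherited from 1 parent, a choice that rests on DNA methylation set in the egg or sperm. Many of them act on growth of the embryo, placenta and brain, and many are abundant in developing neurons. They lie in clusters: Dlk1, expressed from the paternal copy, shares a cluster with Meg3 and Rian, long non-coding RNAs expressed from the maternal copy. Peg3 and Usp29 are paternally expressed neighbours, as are Mest, Nnat, Plagl1 and Peg10 at clusters of their own, while Asb4 lies near Peg10 and is expressed mainly from the maternal copy. Plagl1 encodes a zinc finger transcription factor, also called Zac1, known to act on other imprinted genes.

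Methylation of CG dinucleotides carries the imprint, and the bases just upstream of the transcription starts are shown with each CG in capitals. Whether these bases lie in the regions whose methylation sets the imprint of each gene was not examined. The sequences come from RefSeq (build GRCm38.p6), where 9 of the 10 genes, all but Peg10, had a window. The runs of Dlk1, Meg3, Plagl1, Asb4 and Nnat hold the 250 bases before a start, and for Asb4 and Meg3 it is the first of 2 listed starts. Peg3 and Usp29 are transcribed away from each other, and the last run holds the 163 bases between their starts, on the strand of Usp29. The windows of Mest, Rian and the second starts are not shown.
Dlk1, chr12:109452573-109452822, + strand: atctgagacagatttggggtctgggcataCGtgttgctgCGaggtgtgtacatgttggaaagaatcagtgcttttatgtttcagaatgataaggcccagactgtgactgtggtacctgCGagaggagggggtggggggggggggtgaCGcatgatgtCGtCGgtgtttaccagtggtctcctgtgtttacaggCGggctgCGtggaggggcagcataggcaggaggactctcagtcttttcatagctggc
Meg3, chr12:109540746-109540995, + strand: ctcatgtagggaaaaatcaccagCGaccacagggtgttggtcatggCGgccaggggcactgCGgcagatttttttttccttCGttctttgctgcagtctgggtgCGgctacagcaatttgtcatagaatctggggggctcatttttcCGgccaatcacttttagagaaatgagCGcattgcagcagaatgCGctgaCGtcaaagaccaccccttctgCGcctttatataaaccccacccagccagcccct
Plagl1, chr10:13090582-13090831, + strand: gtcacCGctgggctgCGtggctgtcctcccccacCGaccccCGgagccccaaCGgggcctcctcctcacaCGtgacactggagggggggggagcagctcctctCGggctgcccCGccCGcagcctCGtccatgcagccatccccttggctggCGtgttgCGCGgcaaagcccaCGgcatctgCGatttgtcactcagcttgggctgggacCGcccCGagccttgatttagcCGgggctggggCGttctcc
Asb4, chr6:5383136-5383385, + strand: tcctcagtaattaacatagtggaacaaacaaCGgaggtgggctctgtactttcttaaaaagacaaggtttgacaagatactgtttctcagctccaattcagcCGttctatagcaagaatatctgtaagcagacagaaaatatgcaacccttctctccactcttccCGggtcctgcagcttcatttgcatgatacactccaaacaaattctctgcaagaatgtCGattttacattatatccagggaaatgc
Nnat, chr2:157559828-157560077, + strand: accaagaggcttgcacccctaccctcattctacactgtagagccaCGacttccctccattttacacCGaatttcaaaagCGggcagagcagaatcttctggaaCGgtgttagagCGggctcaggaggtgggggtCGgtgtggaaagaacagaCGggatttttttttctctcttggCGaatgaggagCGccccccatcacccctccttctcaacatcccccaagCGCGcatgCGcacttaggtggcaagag
Peg3 to Usp29, chr7:6730420-6730582, + strand: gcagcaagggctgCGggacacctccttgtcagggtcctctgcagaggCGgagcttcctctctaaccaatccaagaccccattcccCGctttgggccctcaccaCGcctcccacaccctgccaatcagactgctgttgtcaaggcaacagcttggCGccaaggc
The Plagl1 window held 19 CG, more than 80.3% of the 32851 windows of this length in the table, whose median was 6. Among the shown windows Nnat held 12, Meg3 10, Dlk1 8 and Asb4 4. The full windows of Usp29 and Peg3 held 14 and 8, and the shorter stretch between their starts 5. Mest held 7, 14 and 14 at its 3 starts and the second Asb4 start 8, while Rian and the second Meg3 start held 0. A search on both strands covered GGGGCCCC, a sequence Plagl1 is known to bind, TGACCA, a core known for Bcl11a, the relative of Bcl11b, and AAGATGGC, a core of the factor Yy1. They occurred in 0.889%, 11.4% and 1.56% of all windows. Of the 13 windows of the members, the full Peg3 window held 1 GGGGCCCC, outside the stretch shown, and the Meg3 window shown held 1 TGACCA. The other 11 windows held none of the 3 sequences. A match of letters is a description and not a binding site.

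Most member probe sets read higher in null than in wild type striatum. Of the 25 probe sets of the 7 genes not picked for their rise, 12 were higher in null at a limma adjusted p under 0.05 and 0 were lower, while 1.87% of all probe sets were called higher and 0.453% lower. The 12 belonged to Meg3, Peg3, Usp29 and Nnat. Probe sets of 1 gene are not independent, and Meg3 alone held 11 of the 25 and 7 of the 12. On the brightest set of each gene Peg3, Usp29 and Nnat passed, beside 2.38% of all genes called higher. Meg3 (limma adjusted p = 0.390), Rian, Mest and Peg10 did not pass there. Among the 25 sets, at an unadjusted p under 0.05 limma gave 19 higher and 0 lower, and SAM scores beyond 2 gave 19 higher and 1 lower. Over all probe sets these shares were 10.9% and 8.74% at the unadjusted p, and 10.3% and 12.7% by SAM. Every null array lay above every wild type array on 17 of the 25, against 7.70% of all probe sets, and the reverse held on 0 of them, against 8.85%. The median difference over the 25 was 0.76, beside -0.08 over all probe sets. Without wild type 3 the count called higher was 3, without null 2 it was 4, without null 1 it was 6 and without wild type 2 it was 7. Over all probe sets the same omissions took the 840 called higher to 210, 282, 324 and 276. Leaving out null 4 or wild type 1 took them to 1713 or 1733. Calls lost or gained with 1 array were thus not confined to these sets. None of the 7 genes was chosen blind to these data, so the counts describe the 25 sets and nothing wider.

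Some member probe sets were dim. Of all 32, 25 averaged above 6.298 over the 7 arrays of both groups, the median of these means over all probe sets, and 7 lay below it. The null arrays enter this mean, and Dlk1 1442724_at, both Asb4 sets and Peg3 1417356_at lay above the median with wild type means below it. The 7 dim sets were 1 of Meg3, 2 of Plagl1, 2 of Peg3, 1 of Usp29 and the only set of Peg10. Nothing in the values tells a dim probe set at background from one that measures little RNA.

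**Figure D1:**
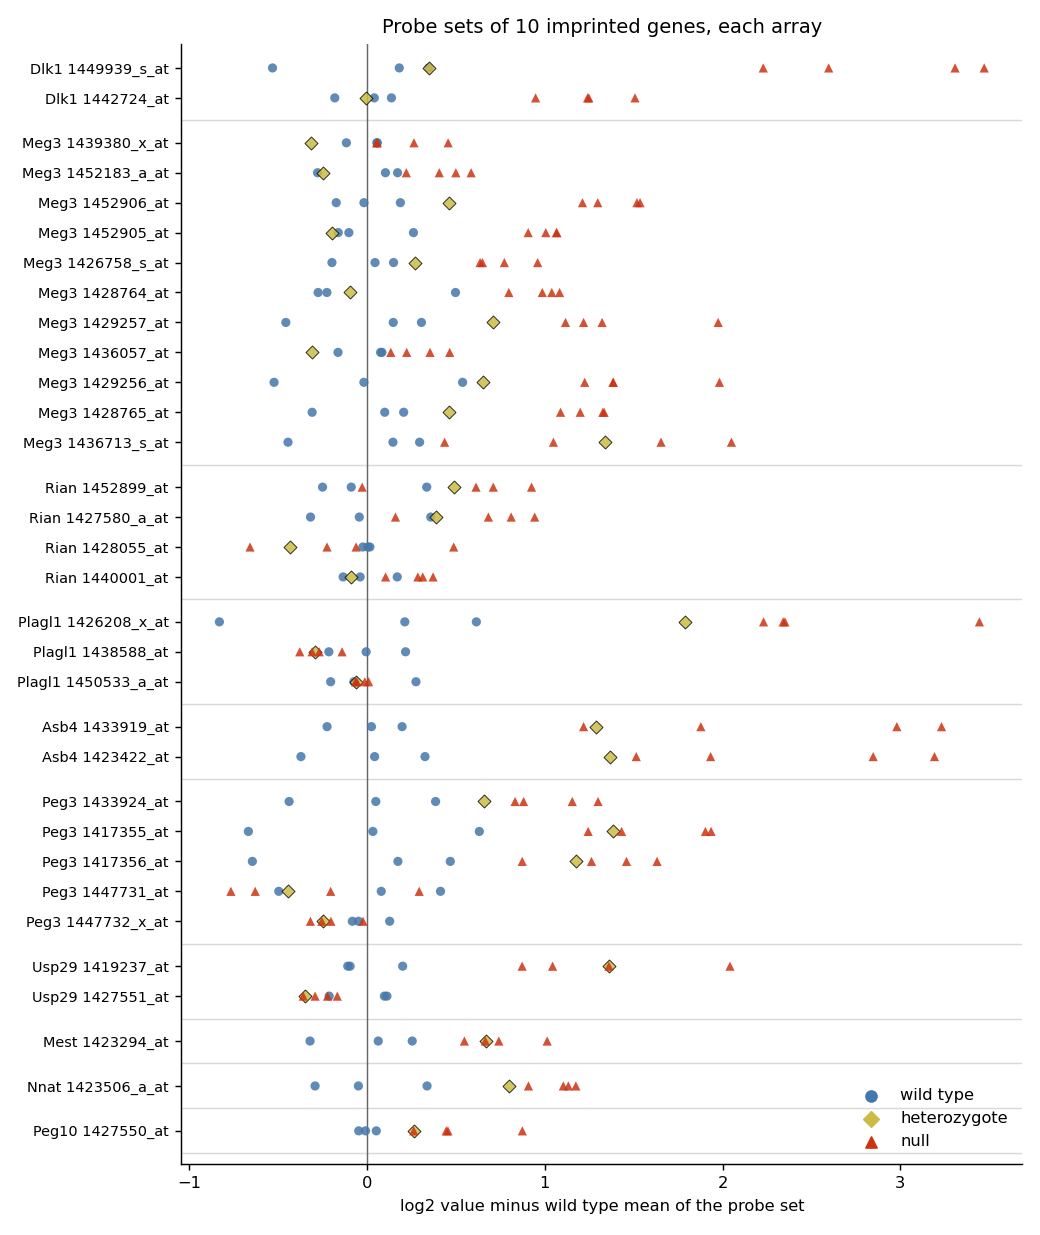
Each row is a probe set of 1 of the 10 imprinted genes and each point 1 array, plotted as its log2 value minus the wild type mean of that probe set. Circles are the 3 wild type arrays, diamonds the heterozygote and triangles the 4 null arrays. The triangles lie right of all circles on 22 of the 32 rows, and left of all circles on 0. Of the 22, 5 are among the 7 rows of Dlk1, Plagl1 and Asb4, picked for their rise, and 17 among the other 25. Over all probe sets these shares were 7.70% right and 8.85% left.

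The spread of log2 values also differed between arrays, with overlap between wild type and null. Its SD was 1.97, 1.84 and 1.87 in wild type 1 to 3, 1.96, 2.03, 2.05 and 1.90 in null 1 to 4, and 2.06 in the heterozygote. When that SD entered the fit, 3 of the 25 probe sets were called higher and 0 lower, all 3 of them Meg3 sets. Over all probe sets the calls fell as well, from 840 to 189 higher and from 204 to 93 lower.

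Dlk1, which encodes a transmembrane protein with EGF repeats that acts on Notch signalling, had 2 probe sets, both of them higher in null. The brighter one, 1449939_s_at, read 6.36, 7.23 and 7.07 in wild type 1 to 3 and 10.19, 10.36, 9.11 and 9.48 in null 1 to 4. The groups did not overlap, and the lowest null array stood clear of the highest wild type array. The means were 6.89 ± 0.47 (SD, n = 3) and 9.79 ± 0.59 (SD, n = 4), a difference of 2.90 or 7.47-fold. On 1442724_at wild type arrays read 6.07, 6.29 and 6.39 and null arrays 7.49, 7.75, 7.20 and 7.495, a difference of 1.24 or 2.36-fold. On both sets null 2 was the highest and null 3 the lowest of the null arrays. The heterozygote read 7.23 and 6.24, at the upper edge and within the range of wild type.

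Meg3, the maternally expressed RNA downstream of Dlk1, was represented by 11 probe sets, and all 11 differences were positive. They ranged from 0.21 to 1.49, with a median of 1.01. On 7 of them null was higher at an adjusted p under 0.05, on 4 the difference did not pass, and on 10 the groups did not overlap. Over all probe sets 1.87% were called higher, and every null array lay above every wild type array on 7.70%. Set 1452906_at read 9.88, 9.52 and 9.67 in wild type 1 to 3 and 10.99, 11.22, 11.21 and 10.90 in null 1 to 4. Every null array exceeded every wild type array by over 1 log2 unit there, and the gene rose 2.62-fold (limma adjusted p = 0.0019). Set 1429256_at had the largest rise, 2.82-fold, with wild type at 7.55 ± 0.53 (SD, n = 3) and null at 9.04 ± 0.33 (SD, n = 4) (limma adjusted p = 0.0184).

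The Meg3 probe sets did not all give the same picture. Set 1439380_x_at differed by 0.21 (limma adjusted p = 0.390), with wild type arrays at 11.53, 11.70 and 11.70 and null arrays at 11.91, 11.70, 11.70 and 12.10. There the groups overlapped. Sets 1452183_a_at and 1436057_at differed by 0.43 (limma adjusted p = 0.1753) and 0.295 (0.2533), without overlap. Set 1436713_s_at, the only Meg3 set below the median of all means, differed by 1.298 (0.0899), with null 4 at 5.68 close to wild type 1 at 5.54. Its limma adjusted p was 0.0178 without null 4. The labels do not say which stretch of the RNA each set covers.

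Of the 7 called Meg3 sets, 1452906_at, 1452905_at and 1428765_at kept their calls with each array left out in turn. These 3 rose 2.62-fold, 2.02-fold and 2.36-fold. Calls of the other 4 were lost with single arrays: 1429256_at and 1429257_at without wild type 3 (limma adjusted p = 0.0737 and 0.0781) or null 2 (0.0559 and 0.0569), 1426758_s_at without wild type 2, wild type 3, null 1, null 2 or null 3 (up to 0.0791), and 1428764_at without wild type 1, wild type 3, null 1 or null 2 (up to 0.136). Quantile normalization ended the calls of 1426758_s_at (0.110) and 1428764_at (0.137).

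Rian, a long RNA of the same cluster that hosts small nucleolar RNAs and miRNAs, had 4 probe sets, and 0 of them passed. Their differences were 0.56 (limma adjusted p = 0.226) on 1452899_at, 0.65 (0.1565) on 1427580_a_at, -0.11 (0.770) on 1428055_at and 0.27 (0.274) on 1440001_at. The groups overlapped on all 4. On 1452899_at null 1 to 3 read 10.83, 10.93 and 11.14, above the wild type values of 10.55, 9.97 and 10.13, while null 4 read 10.19. Without null 4 that set differed at a limma adjusted p of 0.0492, and 1427580_a_at passed with arrays weighted by quality (0.016). Null 3 was the lowest null array on 1427580_a_at and 1428055_at and the highest on 1452899_at, so the sets of this gene did not order the animals alike. Mirg, the next RNA of the cluster and no member, differed by 0.25 (0.443).

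**Figure D2:**
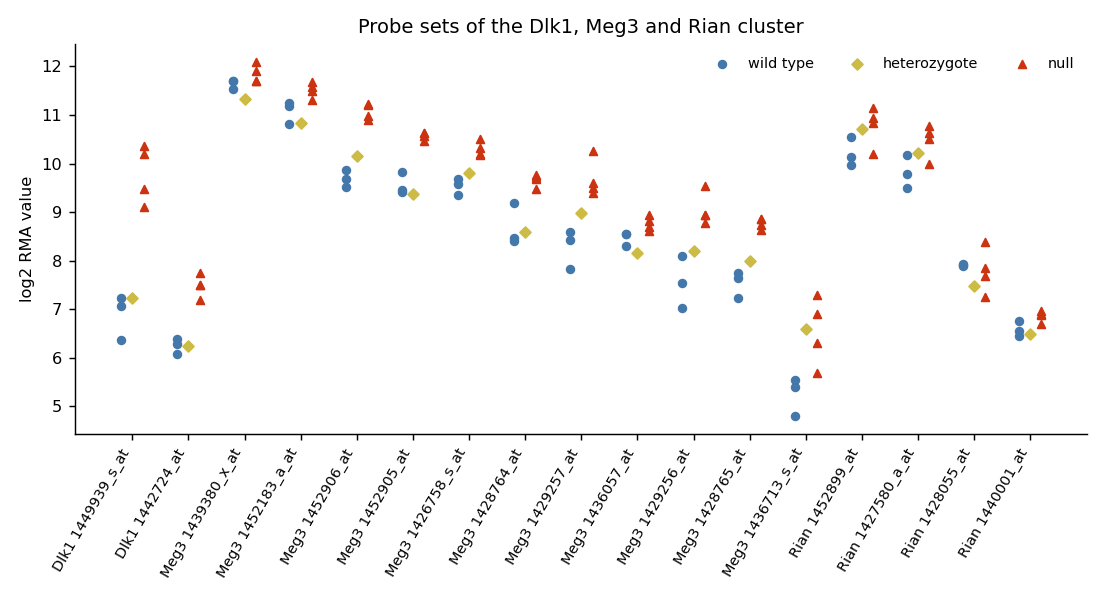
Log2 values (vertical axis) of each array on the probe sets of Dlk1, Meg3 and Rian, with wild type as circles, the heterozygote as diamonds and null as triangles. Null arrays stand above wild type on both sets of Dlk1, which was picked for its rise, and on 10 of 11 Meg3 sets. They overlap with wild type on all 4 Rian sets. Over all probe sets every null array lay above every wild type array on 7.70%, and below on 8.85%. Levels of different probe sets are not comparable with each other.

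This cluster lies on the chromosome of the mutated gene. In the gene order of the RefSeq table (GRCm38.p6), Bcl11b and Dlk1 are both on chromosome 12, with 28 listed genes between them, of which 14 code for proteins. Of 13 genes in between with a probe set, 0 passed limma in either direction on their brightest set (2 higher and 1 lower at an unadjusted p under 0.05 and 1 and 1 by SAM), and their median difference was -0.03. The largest difference among them was 1.06 for Yy1, a zinc finger factor known to bind at imprinted clusters (limma adjusted p = 0.0812). Of 12 measured genes just before Bcl11b and 24 just after Dio3, the gene that ends the cluster, 0 were higher, and Amn, after Dio3, was the 1 that was lower, with a difference of -1.73. Limma gave 1 higher and 3 lower at an unadjusted p under 0.05 and 1 and 2 by SAM before Bcl11b, and 0 higher and 5 lower at an unadjusted p under 0.05 and 1 and 5 by SAM after Dio3. Over all genes 2.38% were called higher and 0.676% lower (12.3% and 9.88% at the unadjusted p, 11.4% and 13.7% by SAM). These neighbours were examined after the values of the cluster had been seen. An effect of the mutated chromosome itself on Dlk1 and Meg3 cannot be told apart from an effect of losing Bcl11b, since each null mouse carries both. Bcl11b was itself lower in every null array than in every wild type array on its 4 probe sets, by 2.16-fold to 3.16-fold.

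Plagl1 stood far higher in null on 1 of its 3 probe sets, 1426208_x_at. Wild type 1 to 3 read 8.23, 6.78 and 7.83 there and null 1 to 4 read 9.84, 9.95, 11.06 and 9.96. The groups did not overlap, wild type 2 was the lowest array and null 3 the highest. The means were 7.61 ± 0.75 (SD, n = 3) and 10.20 ± 0.57 (SD, n = 4), a difference of 2.59 or 6.03-fold. Sets 1438588_at and 1450533_a_at, both below the median of all means, differed by -0.27 and -0.03, and their groups overlapped. On this kind of array the suffix x marks probe sets in which some probes also match other sequences, so the larger difference rests on a set of that kind. Among the members the Meg3 set 1439380_x_at, the brightest of that gene, and the Peg3 set 1447732_x_at carry the suffix too. The heterozygote read 9.40 on the Plagl1 set 1426208_x_at, above all wild type arrays and below all null arrays.

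Asb4, which encodes an ankyrin repeat protein with a SOCS box that serves as an adaptor of ubiquitin ligases, stood higher in null on both probe sets. Set 1433919_at read 5.80, 6.05 and 6.22 in wild type 1 to 3 and 7.90, 9.25, 9.003 and 7.24 in null 1 to 4. Set 1423422_at read 4.88, 5.30 and 5.58 and then 7.19, 8.45, 8.10 and 6.77. Null animals fell in the same order on both sets, with null 2 and 3 high and null 1 and 4 lower. The differences were 2.33 and 2.37, or 5.02-fold and 5.17-fold, with null SDs of 0.94 and 0.78 beside wild type SDs of 0.21 and 0.35. Both wild type means, 6.02 and 5.26, lay below the median of all probe set means. The heterozygote read 7.31 and 6.62, within the null range on the former and just under it on the latter.

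**Figure D3:**
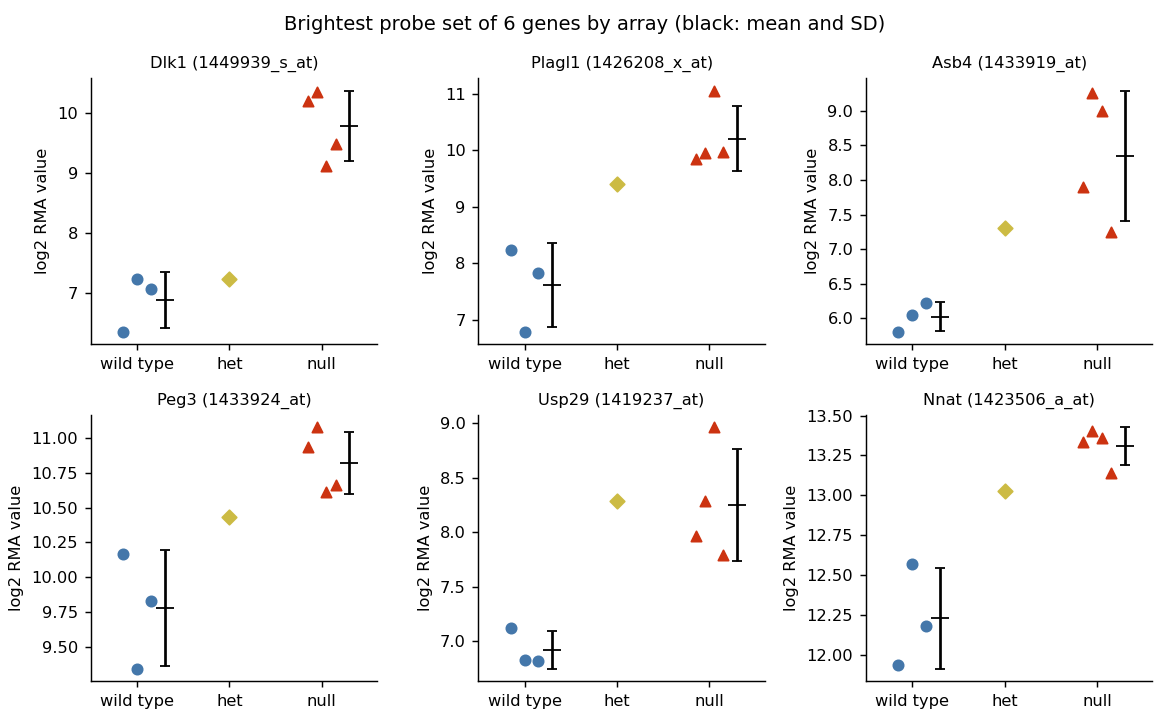
Log2 values of each array on the brightest probe set of Dlk1, Plagl1, Asb4, Peg3, Usp29 and Nnat, with the group mean and SD in black for the 3 wild type and 4 null arrays. Null arrays lie above wild type arrays in every panel, as they did on 7.70% of all probe sets. Dlk1, Plagl1 and Asb4 were picked for their rise, and Peg3, Usp29 and Nnat had passed limma on these sets. The single heterozygote array is at the wild type level for Dlk1, at 7.23, and above all wild type arrays in the other panels.

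Peg3, which encodes a zinc finger protein with many Krüppel-type fingers, rose on 3 of its 5 probe sets. Set 1433924_at read 10.16, 9.34 and 9.83 in wild type 1 to 3 and 10.93, 11.08, 10.61 and 10.66 in null 1 to 4, a 2.06-fold rise (limma adjusted p = 0.0302). Set 1417355_at rose 3.09-fold, the wild type mean being 7.27 ± 0.65 (SD, n = 3) and the null mean 8.89 ± 0.34 (SD, n = 4) (limma adjusted p = 0.0212), and 1417356_at rose 2.47-fold (0.0361). On each of the 3 the groups did not overlap, and wild type arrays spread more widely than null arrays. Sets 1447731_at and 1447732_x_at, with means near 4, differed by -0.33 (0.493) and -0.20 (0.372). Each of the 3 calls was lost without wild type 2, wild type 3, null 1 or null 2, at limma adjusted p values up to 0.110, and those of 1417355_at and 1417356_at also without null 3 (0.0505 and 0.0816). All 3 were lost with the heterozygote among the controls (up to 0.309), and 1433924_at and 1417356_at with arrays centred on their median (0.0546 and 0.0689).

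Usp29, a gene of the ubiquitin-specific protease family that starts beside Peg3, rose on 1 of 2 probe sets. Set 1419237_at read 7.12, 6.83 and 6.81 in wild type 1 to 3 and 7.97, 8.28, 8.96 and 7.80 in null 1 to 4. Wild type arrays lay close together, null 3 stood highest, and the rise was 2.51-fold (limma adjusted p = 0.0270). Set 1427551_at, below the median of all means, differed by -0.26 (0.287). The call was lost without wild type 2 (0.113), wild type 3 (0.1202), null 1 (0.0525) or null 2 (0.0855), with arrays centred on their median (0.0582) and with the heterozygote among the controls (0.3598). Zim1, Zim2 and Zim3, other genes of the Peg3 cluster, differed by -0.0401, -0.0391 and -0.0046, with limma adjusted p values from 0.854 to 0.988. The Zim1 and Zim2 sets were dim, with means of 4.91 and 4.78, below the median of all means.

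Nnat, which encodes neuronatin, a small membrane protein of the endoplasmic reticulum in neurons, rose 2.11-fold on its only probe set (limma adjusted p = 0.0104). Wild type arrays read 11.94, 12.57 and 12.18 and null arrays 13.33, 13.40, 13.36 and 13.14. All null arrays lay above all wild type arrays and close to each other. The call was lost without wild type 3 (0.0601) and with the heterozygote, at 13.03, among the controls (0.139). Blcap, whose intron holds Nnat, differed by 0.60 (0.136).

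Mest, which encodes a protein of the alpha/beta hydrolase fold, differed by 0.74, or 1.67-fold, without passing (limma adjusted p = 0.0545). It read 6.99, 7.56 and 7.37 in wild type and 7.97, 8.05, 8.32 and 7.855 in null arrays, which did not overlap. It passed without null 4 (0.0383), and with the test limited to brighter probe sets (0.0452). Peg10, a gene derived from a retrotransposon and needed for the placenta, differed by 0.51 (0.125) at values between 4.95 and 5.87, below the array medians. Sgce, the neighbour of Peg10 that encodes epsilon-sarcoglycan, differed by 0.34 (0.317).

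The heterozygote array did not sit alike on all members. Its position was expressed on the line from the wild type mean, 0, to the null mean, 1. Over all 840 probe sets called higher in null the median position was 0.78, and the array lay past the midpoint on 78.1% of them. On the 3 called Peg3 sets the position was 0.63, 0.85 and 0.90, on the called Usp29 set 1.03 and on Nnat 0.74. The Plagl1 set stood at 0.69 and the Asb4 sets at 0.55 and 0.58. On Dlk1 the position was 0.12 and -0.01, and on the 7 called Meg3 sets it ran from -0.19 to 0.50, with 1 past the midpoint. On 1452905_at and 1428764_at the heterozygote read 9.37 and 8.59, beside wild type means of 9.56 and 8.69. On the 4 Bcl11b sets, all lower in null, its position was -0.12, -0.18, 0.05 and -0.20, near the wild type mean. The 204 probe sets called lower in null had a median position of 0.13. Wild type arrays enter both ends of this scale, the positions of probe sets of 1 gene are not independent, and 1 animal gives no spread, so no test was made. That array also had the widest spread of log2 values of the 8.

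**Figure D4:**
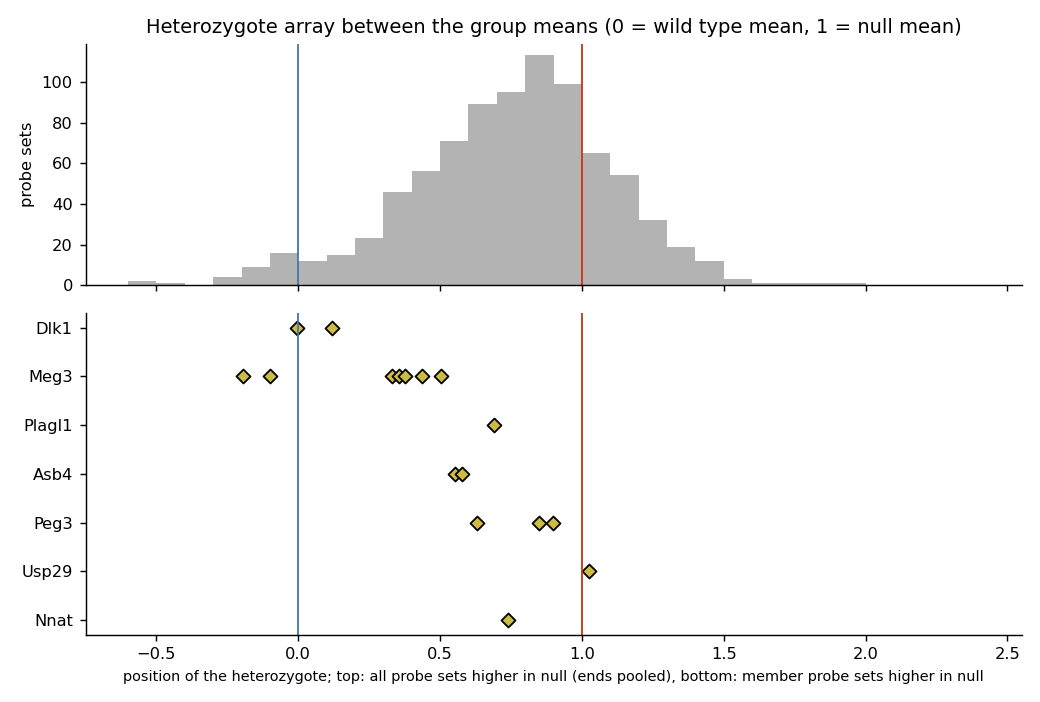
Horizontal axis: position of the heterozygote array between the wild type mean (0) and the null mean (1). The upper panel counts the 840 probe sets called higher in null, with a median of 0.78. The lower panel shows the 17 member probe sets under the same limit, where the Dlk1 and Meg3 points lie furthest to the left. Of the 17, 5 are sets of Dlk1, Plagl1 and Asb4, picked for their rise, so their place below the limit is no test.

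Most other imprinted genes did not pass. A list of 64 further imprinted genes was drawn up for their imprinting, with earlier results of these data known, and 53 had a probe set with 1 symbol. On the brightest set of each gene 3 were higher, 0 were lower and 50 did not pass, beside 2.38% of all genes called higher and 0.676% lower on the same rule. At an unadjusted p under 0.05 limma gave 13 higher and 3 lower, and SAM scores beyond 2 gave 11 and 4. Over all genes these shares were 12.3% and 9.88% at the unadjusted p, and 11.4% and 13.7% by SAM. The median difference was 0.07, against -0.08 for all genes. On their brightest sets 13 of the 53 averaged below the median of all probe set means, beside 6179 of all 18193 genes. For such dim sets background and little RNA cannot be told apart.

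The 3 that passed were Zdbf2, Nap1l5 and Ddc. Zdbf2, a paternally expressed zinc finger gene, rose 3.64-fold, the wild type mean being 8.46 ± 0.56 (SD, n = 3) and the null mean 10.32 ± 0.54 (SD, n = 4) (limma adjusted p = 0.0184). Nap1l5, a paternally expressed gene of the nucleosome assembly protein family, rose 3.54-fold (0.0094) between wild type at 8.76 ± 0.61 (SD, n = 3) and null at 10.58 ± 0.29 (SD, n = 4). The heterozygote lay near the null mean on both, at 10.18 and 10.10. Ddc, which encodes the decarboxylase that makes dopamine and serotonin, rose 3.17-fold (0.0086), from a wild type mean of 5.67 to 7.33, with the heterozygote at 6.35. The Zdbf2 call did not hold when wild type 2, wild type 3, null 1 or null 2 was left out (up to 0.0754), and Nap1l5 and Ddc lost theirs with the array SD as a covariate (0.0905 and 0.0625). With the heterozygote among the controls Zdbf2 and Nap1l5 did not pass (0.2729 and 0.1301). Of well-known growth genes on the list, named after their values were seen, Igf2 differed by 0.08 (0.765), Cdkn1c by -0.28 (0.4735), Igf2r by -0.11 (0.670), Gnas by 0.34 (0.202) and Grb10 by 0.81 (0.248).

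**Figure D5:**
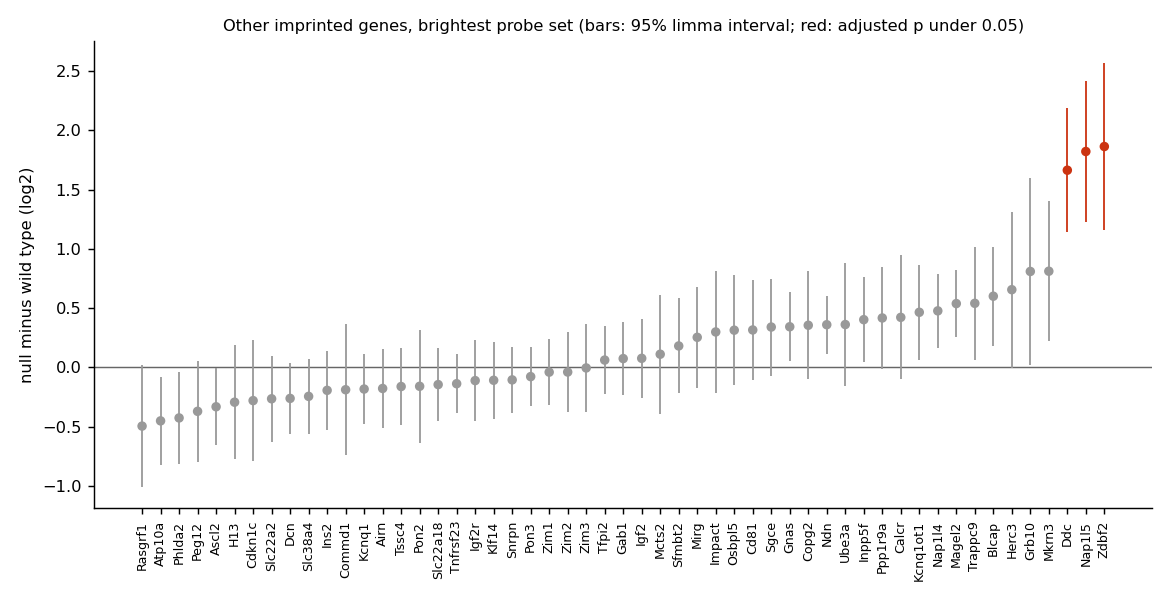
Difference between null and wild type means (log2) of the 53 other imprinted genes on their brightest probe set, in order of size, with the 95% limma interval as a bar. Red marks the 3 genes with an adjusted p under 0.05, Ddc, Nap1l5 and Zdbf2; the other 50 lie between -0.50 and 0.81.

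Imprinted genes linked to Plagl1 in earlier work formed a network list of 15, of which 14 were measured. Members and genes of the previous list recur on it, so these counts are not separate results. The lists of neighbours and of the insulin-like growth factor axis below also repeat genes of the previous list. Dlk1 and Plagl1 are on the network list but were picked for their rise. Of the other 12, on their brightest sets, Peg3 was the 1 that was higher, 0 were lower and 11 did not pass, beside 2.38% of all genes higher. Limma gave 6 higher and 0 lower at an unadjusted p under 0.05, and SAM 4 and 0. The shares of all genes were 12.3% and 9.88% at the unadjusted p, and 11.4% and 13.7% by SAM. Meg3 counted here among those that did not pass, because its brightest set is 1439380_x_at. Outside the members the largest difference was in Gatm, a creatine synthesis enzyme, with 1.28 (limma adjusted p = 0.2225) and a wild type SD of 1.41. Without wild type 1 its limma adjusted p was 0.0426. Grb10 and Ndn followed, with 0.81 (0.248) and 0.36 (0.131). Ndn did not overlap between the groups and passed with array weights (0.0379).

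Genes beside the members on the chromosomes passed in 2 of 27 cases, both higher and 0 lower (5 and 0 at an unadjusted p under 0.05, 4 and 0 by SAM). Over all genes 2.38% were higher and 0.676% lower (12.3% and 9.88% at the unadjusted p, 11.4% and 13.7% by SAM). Cep41, a centrosomal protein gene beside Mest, rose 2.62-fold (limma adjusted p = 0.0429), but lost its call without any 1 array except null 4 and with the heterozygote among the controls (0.3232). Dync1i1, a dynein intermediate chain gene near Asb4, rose 2.59-fold, the wild type mean being 7.89 ± 0.15 (SD, n = 3) and the null mean 9.26 ± 0.22 (SD, n = 4) (limma adjusted p = 0.0026). Its heterozygote value was 9.29, and with that array among the controls the p was 0.256. Casd1, near Peg10, differed by 0.87 (0.0681), and passed without wild type 1 (0.044) or null 4 (0.0363).

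In the insulin-like growth factor axis, the pathway through which several imprinted genes act on growth, 2 of 20 measured genes were higher and 0 lower (6 and 3 at an unadjusted p under 0.05, 4 and 3 by SAM). The shares of all genes were 2.38% and 0.676% (12.3% and 9.88% at the unadjusted p, 11.4% and 13.7% by SAM). Irs1, the docking protein of the insulin and IGF receptors, rose 4.84-fold, the wild type mean being 7.53 ± 0.31 (SD, n = 3) and the null mean 9.81 ± 0.46 (SD, n = 4) (limma adjusted p = 0.0025), and did not pass with the heterozygote, at 9.16, among the controls (0.0775). Igfbp4, a secreted binding protein of IGFs, rose 2.03-fold (0.0325), a call that did not hold when wild type 2, wild type 3, null 1, null 2 or null 3 was left out (up to 0.141), or with the heterozygote among the controls (0.323). The receptor gene Igf1r differed by 0.90 (0.067), and passed without null 4 (0.0177).

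Among factors that keep imprints and methylation, 1 of 22 passed, and 0 were lower (7 and 1 at an unadjusted p under 0.05, 5 and 1 by SAM). All genes gave 2.38% higher and 0.676% lower (12.3% and 9.88% at the unadjusted p, 11.4% and 13.7% by SAM). Dnmt1, the maintenance DNA methyltransferase, rose 1.84-fold, the wild type mean being 9.57 ± 0.16 (SD, n = 3) and the null mean 10.45 ± 0.17 (SD, n = 4) (limma adjusted p = 0.0139), and did not pass when wild type 2 (0.0633), wild type 3 (0.0698) or null 2 (0.0535) was left out, or with the heterozygote among the controls (0.1913). Arid4b and Tet1 differed by 1.11 (0.1465) and 1.06 (0.131), and both passed without wild type 1 (0.0065 and 0.0417). Of 19 Notch pathway genes around Dlk1, 1 was higher and 0 lower (6 and 1 at an unadjusted p under 0.05, 6 and 1 by SAM). That was Dlk2, the paralogue of Dlk1, which rose 2.02-fold, the wild type mean being 8.10 ± 0.10 (SD, n = 3) and the null mean 9.11 ± 0.15 (SD, n = 4) (limma adjusted p = 0.0051), and did not pass with the heterozygote, at 8.83, among the controls (0.1009). Rbpj, the Notch transcription factor, differed by 0.95 (0.0614) and passed without null 4 (0.0048), and Hey1, a Notch target, differed by -0.67 (0.152) and passed without null 3 (0.0347).

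The genes whose values were most like those of the 3 picked genes were found by the mean absolute difference of centred values over the 8 arrays, among 18192 genes. For Dlk1 they were the neurofilament gene Nefl (0.374), Fign (0.468) and the neurotensin precursor gene Nts (0.482). For Plagl1 they were Bcl2l11 (0.242), which encodes the pro-apoptotic protein Bim, the kinase gene Pak3 (0.281) and Prr13 (0.292). For Asb4 they were the RNA-binding protein gene Elavl4 (0.194), Lrrc75b (0.277) and Zfp697 (0.286). Smaller values mean closer patterns, and none of these 9 genes is a member.

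Marker lists gave the levels of genes typical of a cell type or region, which do not count cells. Beside these lists, all genes gave 2.38% higher and 0.676% lower (12.3% and 9.88% at an unadjusted p under 0.05, 11.4% and 13.7% by SAM). Medium spiny neuron markers were above the array medians in every group: their mean log2 level was 9.54 to 9.78 in wild type, 9.07 to 9.35 in null and 10.08 in the heterozygote, and 4 of 11 were lower in null and 0 higher (4 and 1 at an unadjusted p under 0.05, 5 and 1 by SAM). Microglial markers were called in 0 of 10 cases by limma, with 6 higher and 0 lower at an unadjusted p under 0.05 and by SAM, and their mean level was 6.71 to 6.81 in wild type, 6.985 to 7.36 in null and 6.75 in the heterozygote. Of 18 genes listed for hypothalamus and septum, regions rich in several of these imprinted genes, Lhx6 alone was higher (limma adjusted p = 0.0487). Limma called 0 lower (2 higher and 3 lower at an unadjusted p under 0.05, 2 and 4 by SAM). The mean level of the 18 was 7.30 to 7.62 in wild type and 7.29 to 7.44 in null. Npy, Sst and Lhx6 averaged 11.17, 10.24 and 8.82 in wild type striatum, so this list is no measure of those regions alone. The choroid plexus list, with 0 of 10 called (0 and 1 at an unadjusted p under 0.05 and by SAM), ranged from 5.70 to 6.31 in wild type and from 5.29 to 6.61 in null, highest in wild type 1 and null 2. Without these 2 arrays the Dlk1 differences were 2.45 and 1.06, the Asb4 differences 1.91 on both sets and the larger Plagl1 difference 2.98. Of 9 progenitor markers Sox2 was higher (limma adjusted p = 0.0459) and 0 were lower (2 and 0 at an unadjusted p under 0.05 and by SAM). Limma called 0 of 12 meningeal markers (1 higher and 2 lower at an unadjusted p under 0.05, 0 and 1 by SAM), 0 of 9 endothelial (2 and 0, then 1 and 0), 0 of 6 red blood cell (0 and 1, then 0 and 1), 0 of 8 cortical projection neuron (0 and 0, then 0 and 1) and 0 of 9 oligodendrocyte markers (0 and 1, then 1 and 1). The part of any cell type in these differences was not tested.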

How the data were processed

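RNA of 8 punches of newborn mouse striatum, 1 mouse each, was hybridised to Affymetrix arrays. The authors deposited 1 log2 value per probe set and array, made with RMA, per the labels' design text and the submitters' processing notes; which version is not stated there. Values were used as deposited, with no filter. All 45037 probe sets were fitted with limma 3.58.1 in R 4.3.3 (lmFit and eBayes, 3 wild type against 4 null arrays, no covariate, Benjamini-Hochberg over all probe sets, threshold 0.05). SDs are between animals; precision is limited by how few arrays there are. Of the probe sets 34945 carry 1 gene symbol, 932 several and 9160 none; for lists, each of 18193 genes was represented by its brightest set, and symbols were updated through RefSeq. Sequences and gene order came from RefSeq GRCm38.p6. The fit was tested on simulated data. Figures used matplotlib 3.10.9 in Python 3.11.15.

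By rule, the genes named were all members on every probe set and, for the 3 picked genes, the 3 most alike. From each list other than the marker lists they were the 3 largest differences outside the members and up to 6 that passed. For other imprinted genes all that passed were named. Cluster neighbours, well-known growth genes, marker genes, Bcl11b and genes near it were named outside this rule. Members, lists and alternatives were chosen with earlier results of these data known. Same-numbered animals did not deviate together from their group means (correlations of -0.25, -0.31 and -0.17), so the numbers were not taken to pair them. Alternatives covered the SAM statistic, prior, weights, threshold, filter, centring, normalization, each array left out, the heterozygote, the replicate block, array SD, the arrays high in choroid plexus marker Ttr and the probe set per gene.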

Additional observations from a re-analysis of the deposited data

Results flagged for a closer look

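Among the 4 null arrays, 1 array stood far from the other 3 on 2 of the 50 probe sets examined, where about 1 in 20 is flagged by chance. On the Plagl1 set 1426208_x_at, null 3 read 11.06 and the others 9.84, 9.95 and 9.96, a gap of 0.901 of the range. Without null 3 the difference was 2.31. On Rbpj the gap was 0.847 of the range, with null 4 at 7.81 and the others at 8.61, 8.76 and 8.69.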

How the results depend on the processing

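The count of probe sets called higher among the 25 of genes not picked for their rise, 12, became 19 with SAM scores beyond 2, 3 at an adjusted p under 0.01, 4 with the heterozygote among the controls, 3 with the SD of each array as a covariate and 5 without wild type 1 and null 2. It ran from 3 to 15 with 1 array left out, where the count over all probe sets ran from 210 to 1733. Over all probe sets the 840 called higher became 4630 with SAM scores, 190 at an adjusted p under 0.01 and 2686 with array weights. They became 110 with the heterozygote among the controls, 189 with the SD covariate and 412 without wild type 1 and null 2. With the replicate number as a block they became 1696. The 204 called lower over all probe sets became 5717 with SAM scores. The count called lower among the 25, 0, became 1 with SAM scores and was 0 under the other alternatives. For the other imprinted genes the 3 called higher became 11 with SAM scores, 7 with array weights, and 1 each with the heterozygote among the controls, the SD covariate or wild type 1 and null 2 left out. They ran from 2 to 5 with 1 array left out, and the 0 called lower became 4 with SAM scores. The Rian set 1428055_at changed sign, to 0.19 with array weights, -0.31 to 0.068 with 1 array left out (positive without null 3) and 0.10 with the SD covariate, and the Peg3 set 1447731_at to 0.29 with the SD covariate. The causes were not tested. With the replicate number as a block, 14 of the 25 probe sets and 3 imprinted genes were called higher, with 0 lower in both; animals sharing a number showed no sign of pairing. That block drops null 4, which has no partner, and Mest (0.0394) and the Meg3 set 1436713_s_at (0.0101) passed under it by limma adjusted p. With the heterozygote as a group of its own the counts were the same, since 1 array adds nothing to the residual spread. Dim probe sets limit what can be said of Peg10 and of the lower sets of Plagl1, Peg3 and Usp29.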
